A study of Saccharomyces cerevisiae with 2 samples.

Results

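The nucleosomes described here are those on chromosome III of budding yeast whose score ranked higher in H2A.Z chromatin than in total chromatin. There were 291 of them among 1531 nucleosomes found at the same place in both libraries, or 19.0% of the pairs compared. H2A.Z is a variant of histone H2A, encoded in yeast by HTZ1. The SWR1 complex puts it into nucleosomes in place of H2A. It is best known from the nucleosomes on either side of the nucleosome-depleted region at promoters, and in yeast also from chromatin next to silenced domains. A stretch of DNA with regularly spaced nucleosomes is called an array, and arrays in yeast often start at such depleted regions.

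The study held 2 samples, 1 library each, from strain yFR212 in the W303 background. The strain is MATa, GAL+ and psi+, and carries can1-100, ade2-1, trp1-1 and ura3-1, the his3 mutations 11 and 15, and the leu2 mutations 3 and 112. Its HTZ1 gene is fused to 3 copies of the Myc epitope in both samples. Cells were crosslinked with 1% formaldehyde, and their chromatin was cut with micrococcal nuclease, which favours the linker DNA between nucleosomes. One library holds total mononucleosomes. The other holds mononucleosomes precipitated with an anti-Myc antibody, whose clone the labels name in more than 1 way. No untagged strain and no second library of either kind was analysed here, so how much DNA without H2A.Z came through the precipitation is not known. A position of the H2A.Z list need not carry H2A.Z.

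Each library had a single-end list of predicted nucleosome centres, 1881 in total chromatin and 1859 in H2A.Z, each with a score given by the authors. Centres of the lists were paired when each was the nearest of the other within 20 bp, which left 350 total and 328 H2A.Z positions unpaired. Each paired position received its score percentile among the paired positions of its own list, from 0 for the lowest to 1 for the highest. Members, as the higher-ranked nucleosomes are called here, had an H2A.Z percentile at least 0.2 above their total percentile. The 949 comparison pairs had a difference between -0.2 and 0.2. The lists give no read counts, so depth is unknown. With 1 library per group the differences have no replicate check, and p-values were not computed. Intervals on shares are 95% Wilson intervals, or exact intervals for windows and ends. They cover counting error only and treat nucleosomes as independent, which neighbours were not.

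Members were chosen by their score percentiles, which are given here as a description only. Their total percentile had a median of 0.277 (interquartile range 0.135 to 0.440) and their H2A.Z percentile a median of 0.682 (0.508 to 0.844). The difference ranged from 0.2 to 0.896, with a median of 0.331. In comparison pairs the medians were 0.525 in total chromatin and 0.502 in H2A.Z. The rule leaves out strong nucleosomes of total chromatin, since a pair above percentile 0.8 there cannot gain 0.2. The highest total percentile of a member was 0.741. Percentiles are relative within a list, so gains of some pairs are matched by losses of others. A difference of -0.2 or less was found for 291 pairs as well, and a gain in rank is not a gain in occupancy. Just inside the limit were pairs centred in total chromatin at 185089, 218187, 163944, 56027 and 179051, with differences of 0.2, 0.201, 0.201, 0.201 and 0.202. Just outside it were those at 24972, 205642, 120966, 158410 and 136831, with differences of 0.199, 0.199, 0.197, 0.195 and 0.195.

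**Figure D1:**
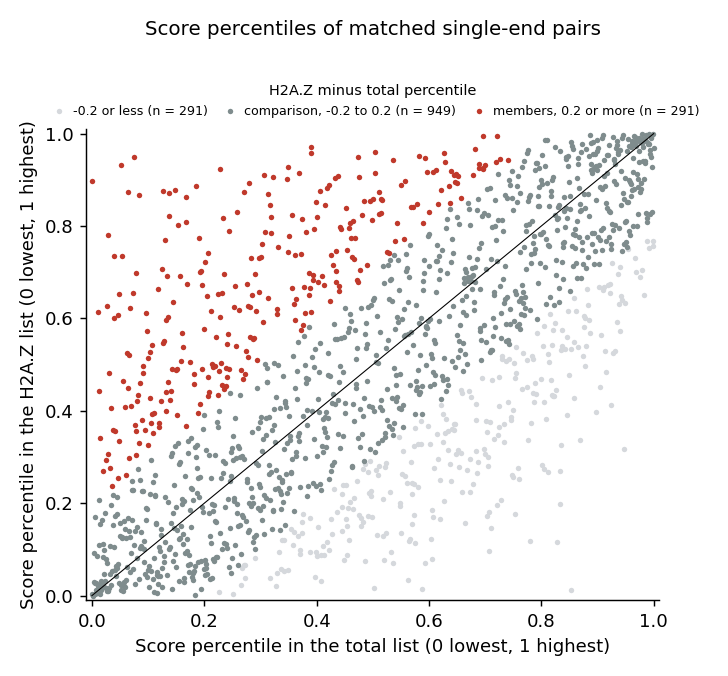
Each point is 1 of 1531 matched pairs, with its score percentile in total chromatin on the x axis and in H2A.Z on the y axis, both from single-end lists. The 291 members, in red, lie in the upper left and none of them lies above a total percentile of 0.741.

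The member with the largest difference had its centre at 114447 in total chromatin and at 114436 in H2A.Z (chromosome III, sacCer2, as for every centre named here). It ranked 1877 of 1881 by score in total chromatin and 162 of 1859 in H2A.Z, percentiles of 0.000654 and 0.897. Its neighbours in the total list lay 247 bp to the left and 225 bp to the right, so it stood apart on both sides. Its forward and reverse read peaks stood 145 bp apart in total chromatin but 112 bp apart in H2A.Z. The SD of its forward read positions, which is larger for fuzzy positions, dropped from 31.4 bp to 13.4 bp in H2A.Z, the lowest of any member there. The standard error of its centre was 12.0 bp in total chromatin against 0.996 bp in H2A.Z. The SD of 31.4 bp in total chromatin was near the members' median of 32.5 bp. It belongs to a position near the bottom of the score ranks there. The standard error of its centre there, 12.0 bp, stood against a members' median of 2.36 bp, so its place in total chromatin is uncertain. How certain its SD is was not examined. As background, the centromere of chromosome III, which carries a specialised nucleosome with the H3 variant Cse4, lies in the window from 110 to 120 kb. It was not located on the build of the lists here.

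The member at 303225 rose from percentile 0.0516 in total chromatin to 0.933 in H2A.Z, and the one at 30717 from 0.0745 to 0.948. Each had a neighbour distance of over 200 bp on the left, of 263 bp and 297 bp, and a regular or shorter one on the right, of 133 bp and 177 bp. The next were at 162973, 137927 and 90838, with differences of 0.810, 0.782 and 0.752. None of these had a wide neighbour distance. Their neighbours lay 89.7 and 106 bp, 105 and 96.7 bp, and 117 and 125 bp away. As background, intact nucleosomes so close together would overlap if they sat on the same DNA molecule. The others of the first 10 were at 224711, 209902, 298526 and 138391, with differences of 0.750, 0.733, 0.731 and 0.701. Of the first 10, 5 thus had a distance over 200 bp on at least 1 side, and the other 5 had a neighbour at 73.8 to 138 bp.

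The authors' paired-end lists come from the same DNA, so they check the kind of list and not the libraries. Of the 291 members, 202 had a matched paired-end pair, and the other 89 could not be followed there. In 159 of the 202, or 78.7% (72.6 to 83.8%), the paired-end difference was also at least 0.2. Among all 1555 paired-end pairs 19.6% passed that limit, and 6.37% (4.81 to 8.39%) of the 722 comparison pairs with a paired-end pair did. The paired-end difference was above 0 in 194 of the 202, with a median of 0.339 (interquartile range 0.217 to 0.441) and a lowest value of -0.308. The 10 members with the largest differences all had a paired-end pair, and their paired-end differences ran from 0.570 to 0.855. The authors also deposited a score for each read strand. By these strand scores, 238 of 291 members, or 81.8%, gained 0.2 or more on the forward and on the reverse strand separately, with medians of 0.349 and 0.325. They belong to the positions and reads of the score that the rule used, so this describes members and is no separate evidence.

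Distances to the neighbouring centres in the total single-end list were not part of the rule. A wide distance is one over 200 bp. Of members 89 of 291, or 30.6% (25.6 to 36.1%), had such a distance on at least 1 side, against 222 of 949 comparison pairs, or 23.4% (20.8 to 26.2%). The difference was 7.19 percentage points (Newcombe interval 1.45 to 13.3). Of the 291 pairs that ranked lower in H2A.Z by 0.2 or more, 17 lay beside a wide distance, or 5.84% (3.68 to 9.16%). In paired-end lists, with members and distances taken from those lists, the difference was 0.365 points (-4.36 to 5.64), so the excess over all members was not seen there. In single-end lists the interval also included 0 with a wide distance taken as over 180 bp (-0.876 to 12.1) or over 250 bp (-1.79 to 7.81). It did so too with a limit of 0.1 for members (-1.80 to 9.37) and with comparison pairs between -0.1 and 0.1 (-2.11 to 10.7).

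The excess varied with rank. Grouping by rank uses the percentiles of the rule, so at a given mean rank members have the higher H2A.Z percentile by construction, and the values are a description. In 5 bins of equal size by the mean of both percentiles, the share of members beside a wide distance was 18.5%, 9.88%, 23.6%, 47.9% and 91.3% from the lowest to the highest bin. In comparison pairs it was 15.3%, 10.0%, 13.4%, 13.7% and 49.8%. In the lower 3 bins the intervals of members and comparison pairs overlapped. In the highest bin 21 of 23 members lay beside a wide distance (interval 73.2 to 97.6%), against 129 of 259 comparison pairs (43.8 to 55.9%). In the next bin it was 34 of 71 members (36.7 to 59.3%) against 22 of 161 comparison pairs (9.20 to 19.8%). With comparison pairs weighted to the members' distribution over these 5 bins, the difference over all members was 15.0 percentage points. Paired-end lists had the same order in the upper 2 bins, with 29.9% of 77 members against 7.43% of 148 comparison pairs, and 76.2% of 21 against 40.4% of 260. In their lower 3 bins the intervals overlapped. In the lowest of these the members had the smaller share, 8.11% of 37 against 13.5% of 244 comparison pairs.

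**Figure D2:**
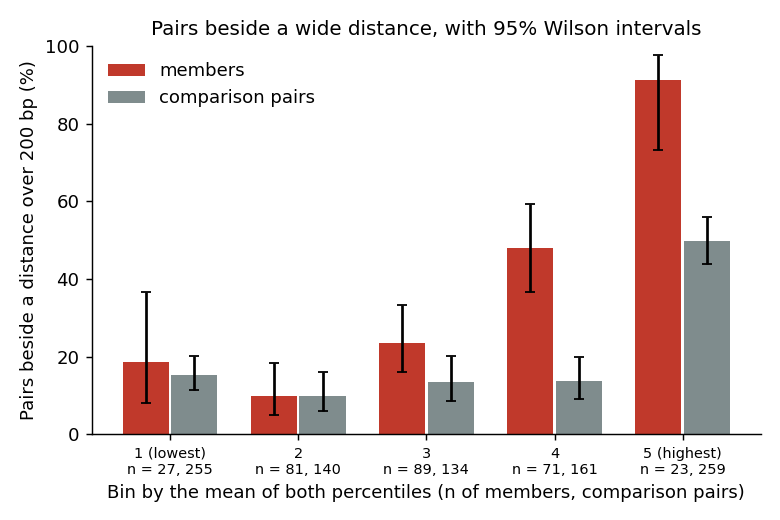
Bars show the share of members (red) and comparison pairs (grey) beside a neighbour distance over 200 bp, in percent on the y axis, in 5 bins by the mean of both percentiles on the x axis; error bars are 95% Wilson intervals. The intervals overlap in the lower 3 bins and separate in the upper 2, where members reach 47.9% and 91.3%.

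Read the other way, nucleosomes above a total percentile of 0.2 and up to 0.8 were members more often beside a wide distance. Between total percentiles of 0.6 and 0.8, 22 of 55 pairs beside a wide distance were members, or 40.0% (28.1 to 53.2%). Of the 251 pairs in that range with no wide distance, 5 were, or 1.99% (0.854 to 4.58%). Between 0.4 and 0.6 the shares were 46.6% of 58 and 14.5% of 248, and between 0.2 and 0.4 they were 22 of 40, or 55%, and 27.8% of 266. Up to 0.2 the shares were 31.6% of 57 and 34.8% of 250, and the intervals (21.0 to 44.5% and 29.2 to 40.9%) overlapped. Members beside a wide distance made up 22 of the 27 members between 0.6 and 0.8, 27 of 63 between 0.4 and 0.6, and 22 of 96 between 0.2 and 0.4. In the paired-end lists the shares between 0.6 and 0.8 were 36.2% of 47 and 3.79% of 264.

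Wide distances were also common at a high H2A.Z rank, both in members and in comparison pairs. Of the 94 members at an H2A.Z percentile of 0.8 or more, 59 lay beside a wide distance, or 62.8%. Of the 213 comparison pairs at that H2A.Z rank, which were strong in total chromatin too, 118 did, or 55.4%. Below 0.8 the shares were 15.2% of 197 members and 14.1% of 736 comparison pairs. The difference between members and comparison pairs within these ranges was not tested.

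Counted from the nearest wide distance, 89 of 328 nucleosomes in the first place were members, or 27.1% (22.6 to 32.2%). In places 2 to 6 together 119 of 805 were, or 14.8% (12.5 to 17.4%), and from place 7 on 83 of 398, or 20.9% (17.2 to 25.1%). Median H2A.Z percentiles fell from 0.822 in the first place to 0.659 in the second, 0.492 in the third and 0.446 in the fourth. Median total percentiles fell less steeply, from 0.637 and 0.673 to 0.587 and 0.543. Pairs with the opposite difference, of -0.2 or less, made up 5.18% of the first place and 33.8% of the fourth. Only in the first place was the median difference above 0, at 0.0641. In paired-end lists the share of members was 23.5% (18.6 to 29.3%) in the first place, 19.3% (16.5 to 22.6%) in places 2 to 6 and 18.5% (15.8 to 21.6%) beyond, so the intervals overlapped there.

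**Figure D3:**
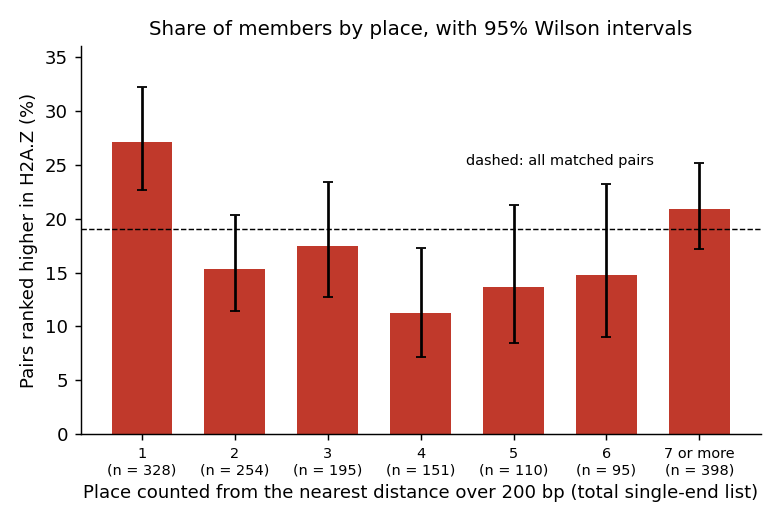
Bars show the percentage of matched pairs that were members (y axis) by place counted from the nearest neighbour distance over 200 bp in the total single-end list (x axis), with 95% Wilson intervals and the number of pairs under each bar. The first place, at 27.1%, stands above the 19.0% of all pairs drawn as a dashed line, and places 2 to 6 lie between 11.3% and 17.4%.

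The side made little difference. With the wide distance on the left, 41 of 155 nucleosomes were members, or 26.5% (20.1 to 33.9%), and with it on the right 43 of 151, or 28.5% (21.9 to 36.1%). The share varied with the width. Pairs whose farther neighbour lay 220 to 250 bp away were members in 36.2% of 80 cases (26.6 to 47.2%), against 19.7% of 61 (11.6 to 31.3%) at 200 to 220 bp. At 250 to 300 bp it was 25.2% of 115 (18.2 to 33.9%), and at 300 to 1000 bp 28.6% of 63 (18.9 to 40.7%). The intervals of these wide distances overlapped, so no order among them is shown. At 165 to 180 bp, the usual repeat length in yeast, the share was 11.0% of 490 (8.55 to 14.1%), the lowest of any width with more than 9 pairs. When the farther neighbour was at most 150 bp away, so that positions were crowded on both sides, the share was 28.5% of 193 (22.6 to 35.2%). These widths also differed in total rank, which the rule used. The median total percentile was 0.204 at up to 150 bp and 0.621 at 165 to 180 bp. A low total rank leaves more room to gain, and the part of rank in these shares was not tested.

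Members had regularly spaced neighbours on both sides less often than comparison pairs. Both neighbours lay 150 to 180 bp away for 44 of 291 members, or 15.1% (11.5 to 19.7%), and for 274 of 949 comparison pairs, or 28.9% (26.1 to 31.8%). The difference was -13.8 percentage points (-18.5 to -8.40). By the rule members also ranked lower in total chromatin, with a median percentile of 0.277 against 0.525. No value at equal rank was computed for this share, so the part of rank in it was not tested. The nearer neighbour of a member lay a median of 149 bp away (interquartile range 117 to 165 bp), against 156 bp (135 to 165 bp). A neighbour less than 100 bp away was found for 14.1% of members and 11.0% of comparison pairs, with a difference of 3.13 points whose interval (-1.0 to 7.96) included 0.

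Where 1 edge of a wide distance was a member, the other edge was a member about as often as such edges were in all. Of 149 wide distances with both edges paired between libraries, 12 had members on both edges, 59 on 1 edge and 78 on none. A member edge faced another member in 28.9% of cases, and members made up 27.9% of all these edges. Across the 1164 shorter distances with both edges paired, a member faced a member in 43.8% of cases, while members made up 16.9% of edges. Members were thus grouped across shorter distances, and no grouping was seen across wide ones. Only 12 wide distances had members on both edges and no interval was computed, so an absence of grouping there is not shown.

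The next pair along the chromosome was a member for 125 of 290 members, or 43.1% (37.5 to 48.9%), against 19.0% of all pairs. The share was 37.6% for the second pair along and 31.4% for the third, at a median distance of 542 bp. By the eighth pair, about 1509 bp away, it was 23.1% (18.6 to 28.3%), an interval that includes 19.0%. Of the members 157, or 54.0%, stood in 59 runs of at least 2 consecutive positions of the total list, and 134 stood alone.

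**Figure D4:**
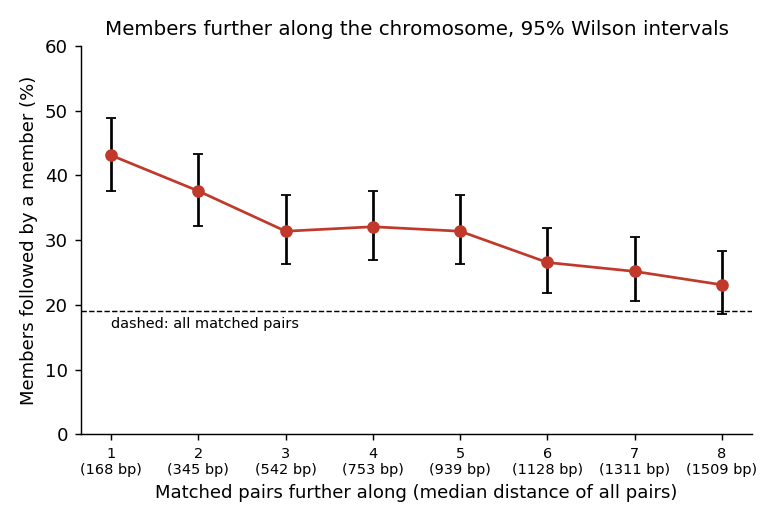
Points show the percentage of members (y axis) for which the pair 1 to 8 places further along the chromosome was also a member (x axis, with the median distance in bp), with 95% Wilson intervals. The share falls from 43.1% at the next pair to 23.1% at the eighth, towards the 19.0% of all pairs drawn as a dashed line.

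The longest runs held 6 members. The first, from 162375 to 163079, had total percentiles of 0.0261 to 0.394 and H2A.Z percentiles of 0.622 to 0.875. Its neighbour distances ran from 89.7 to 195 bp. Of its members 4 had a paired-end pair, with differences from -0.0122, at 162375, to 0.570, at 162973. The second, from 299665 to 300439, had total percentiles of 0.0196 to 0.468, H2A.Z percentiles of 0.269 to 0.773 and distances of 79.6 to 196 bp. The third, of 5 members from 116436 to 117066, had total percentiles of 0.235 to 0.700 and H2A.Z percentiles of 0.697 to 0.931. Another run of 5, from 309823 to 310393, had H2A.Z percentiles of 0.736 to 0.888. Each of these runs held at least 1 distance under 100 bp. A long run has several distances, and other stretches of the same length were not compared. A neighbour under 100 bp was found for 14.1% of all members and 11.0% of comparison pairs.

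Members were uneven along the chromosome. The window from 110 to 120 kb, had the highest share, with 25 members among 52 pairs, or 48.1% (exact interval 34.0 to 62.4%). Next came the window from 300 to 310 kb and that from 280 to 290 kb, with 23 of 50, or 46.0% (31.8 to 60.7%), and 21 of 57, or 36.8% (24.4 to 50.7%). The lowest shares were 1 of 48 from 0 to 10 kb, or 2.08% (0.0527 to 11.1%), 2 of 49 from 240 to 250 kb, or 4.08% (0.498 to 14.0%), and 3 of 50 from 230 to 240 kb, or 6.00% (1.25 to 16.5%). Paired-end lists gave 41.5%, 48.1% and 43.1% in the 3 richest windows and 3.70%, 8.00% and 5.66% in the 3 poorest. A further window, from 150 to 160 kb, was rich in paired-end lists, with 41.7%, and had 32.5% (18.6 to 49.1%) in single-end lists.

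The 3 richest windows differed in kind. From 110 to 120 kb the median total percentile was 0.498, near the middle, and the median H2A.Z percentile was 0.729. From 300 to 310 kb the medians were 0.229 and 0.571, and from 280 to 290 kb 0.275 and 0.490, so pairs there were weak in total chromatin and of middle rank in H2A.Z. Of their members, 12.0% from 110 to 120 kb, 9.52% from 280 to 290 kb and 30.4% from 300 to 310 kb lay beside a wide distance. Together the window from 110 to 120 kb and the 30 kb from 280 kb held 84 of the 291 members, or 28.9%. In all other windows 207 of 1328 pairs were members, and 36.7% of those members lay beside a wide distance, against 24.3% of comparison pairs. There the share of members was 25.6% (21.0 to 30.8%) in the first place from a wide distance, 12.9% (10.7 to 15.6%) in places 2 to 6 and 12.1% (8.93 to 16.3%) from place 7 on. These windows were left out for their high shares of members, so lower shares in the rest follow in part from that choice. Of the 84 members left out with them, 15.5% lay beside a wide distance. The higher 36.7% among the remaining members thus also follows in part from that choice.

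As background, a silent mating-type cassette lies towards each end of the chromosome, HML on the left and HMR on the right. They were not located here, so the ends of 20 kb or 10 kb used below need not hold them. The ends differed. In the first 20 kb 6 of 84 pairs were members, or 7.14% (2.67 to 14.9%), and in the last 20 kb 39 of 99 were, or 39.4% (29.7 to 49.7%). Between the ends the share was 18.2% (16.2 to 20.4%). The last 20 kb include the rich window from 300 to 310 kb, with 46.0%. From 310 kb on 7 of 30 pairs were members, or 23.3% (9.93 to 42.3%). Median total percentiles were low in both ends, 0.433 and 0.261, and H2A.Z percentiles were 0.312 in the first and 0.488 in the last 20 kb. Pooled, the ends had 24.6% (18.5 to 31.5%), a value that hides opposite shares. With ends of 10 kb the pooled share was 13.4%, below the 19.4% of the other pairs, so the order depended on the length taken.

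Members were fuzzier than comparison pairs in total chromatin, and no such difference was seen in H2A.Z chromatin in single-end lists. The forward SD had a median of 32.5 bp in members (interquartile range 28.4 to 36.7 bp) and 28.6 bp in comparison pairs (24.0 to 33.7 bp) in total chromatin. The difference of medians was 3.86 bp (Price-Bonett interval 3.02 to 4.70). In H2A.Z the medians were 29.9 and 29.8 bp, a difference of 0.126 bp (-0.966 to 1.22). Within pairs, the forward SD was smaller in H2A.Z for 197 of 291 members, or 67.7% (62.1 to 72.8%), and for 47.7% (44.6 to 50.9%) of comparison pairs. Narrow positions scored higher in each list, with a Spearman correlation of score and forward SD of -0.650 in total chromatin and -0.587 in H2A.Z over the same 1531 pairs, so the rule and this measure are not independent and the values are a description. With comparison pairs weighted to the members' distribution over the 5 bins of mean rank, the difference in total chromatin was 2.86 bp and in H2A.Z -1.03 bp. In paired-end lists it was 1.90 bp (1.16 to 2.64) in total chromatin and -1.21 bp (-1.72 to -0.706) in H2A.Z, so members were narrower than comparison pairs there.

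The read peak distance, from the forward to the reverse peak of a position, follows the length of protected DNA and differed little. Its median was 126.6 bp in members and 128.0 bp in comparison pairs in total chromatin, a difference of -1.43 bp (-2.67 to -0.193). In H2A.Z it was 126.4 against 127.8 bp, again -1.43 bp (-2.54 to -0.315). The interquartile ranges of members (121 to 132 bp in total chromatin) and comparison pairs (122 to 134 bp) overlapped almost entirely. In paired-end lists the differences were -0.584 bp (-1.65 to 0.480) and -0.176 bp (-1.11 to 0.757), both with intervals that included 0. In single-end lists both intervals also included 0 with a match distance of 10 bp (-2.88 to 0.0641 in total chromatin and -2.37 to 0.436 in H2A.Z) and with percentiles among all positions (-2.53 to 0.392 and -2.20 to 0.227). Within pairs the distance was not shifted between libraries more in members, with medians of -0.507 bp and -0.775 bp, H2A.Z minus total.

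**Figure D5:**
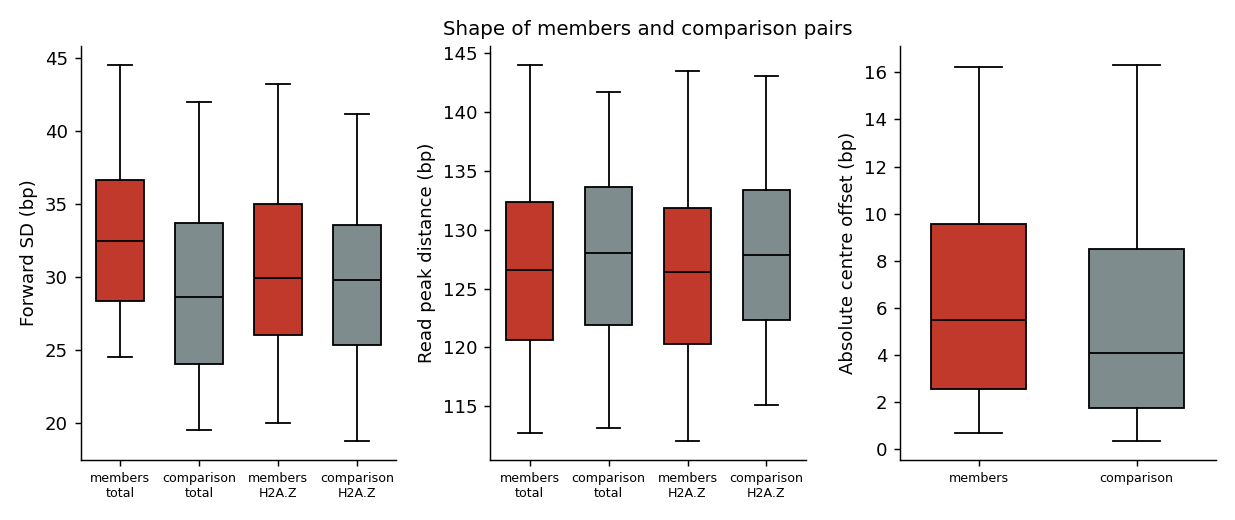
Boxes show the median and quartiles, and whiskers the 5th to 95th percentile, of the forward SD, the read peak distance and the absolute centre offset in bp, for 291 members (red) and 949 comparison pairs (grey) in the list named under each box. Members have the larger forward SD in total chromatin only, 32.5 against 28.6 bp, and the larger median offset, 5.49 against 4.10 bp.

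Centres of members lay farther apart between libraries by the median. The absolute offset had a median of 5.49 bp in members (interquartile range 2.55 to 9.58 bp) and 4.10 bp in comparison pairs (1.75 to 8.52 bp), a difference of 1.39 bp (0.494 to 2.29). Offsets over 10 bp were about as frequent, at 21.6% and 20.3%, a difference of 1.31 points (-3.79 to 6.95). In the lowest bin by mean rank the members' median was the smaller, 5.31 against 7.24 bp, and in the other bins it was the larger. In the total list the standard error of the centre was also larger in members, with medians of 2.36 and 2.01 bp, and its part in the offset was not tested. Over all members the offset had no preferred direction, with a median of -0.0517 bp. Beside a wide distance on 1 side it had one. Of 84 such members, 62, or 73.8% (63.5 to 82.0%), had the H2A.Z centre farther from the wide distance than the total centre, by a median of 3.58 bp (interquartile range -0.0889 to 7.16 bp). Comparison pairs beside a wide distance were displaced the same way in 69.3% of 205 cases (62.6 to 75.2%), by a median of 1.81 bp (-0.793 to 4.67 bp). The medians differed by 1.77 bp (0.410 to 3.14).

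Some H2A.Z entries carry a fractional identifier, whose meaning the lists do not give. These made up 12 of 291 members, or 4.12% (2.37 to 7.07%), and 86 of 949 comparison pairs, or 9.06% (7.40 to 11.1%). The member at 162973, the fourth by difference, has one and has the lowest paired-end difference of the first 10, at 0.570. It stands next to another, at 163079, and both belong to the first of the longest runs.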

How the data were processed

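Per the file headers, the authors' lists hold for each position its centre, the spacing of its read peaks, read position variances per strand and standard errors. The deposited mixing weight is a fraction. The deposited score comes without a stated scale, so it served only as a rank within 1 list. The title of the series names PING. The submitters' processing notes name BWA, SAMtools and sacCer2. Tool versions, filters and model parameters were not given in the sources used here.

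Pairing and intervals were computed in Python 3.11.15 (pandas 2.3.3, numpy 2.4.6, scipy 1.17.1) and tested on simulated data; plots used matplotlib 3.10.9. Samples were grouped by title. Members, measures and bins were chosen with earlier results of these data known. Positions named are the 10 largest differences, the 5 pairs on either side of the limit, the 3 longest runs (a further run of 5 ties) and the 3 windows of 10 kb with the highest and lowest shares. The window from 150 to 160 kb was named after its value was seen. Alternatives covered match distance, limit, percentile base, list type, crowded positions, wide distance and ends. The gene table belongs to another assembly, so no position was given a gene, and genome sequence was not used here.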

Additional observations from a re-analysis of the deposited data

How the results depend on the processing

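For 11 results 99 alternatives were computed. Of these, 82 fell inside the reported interval (for the number of members, inside 1.5 times it) and 17 outside. No difference of medians or of wide neighbour shares whose interval excluded 0 changed sign under these alternatives. This check could not show a reversal for shares of members, since a share is never below 0. The pooled end share did turn. It was 24.6% against 18.2% between the ends, and with ends of 10 kb it was 13.4% against 19.4%. A limit of 0.3 gave 170 members and a limit of 0.1 gave 451, which follows from the limit; of the pairs beside a wide distance 17.7 and 41.5% were then members, and the run share was 33.5 and 56.0%, against 11.1 and 29.5% of all pairs. With the limit of 0.1, 31.7% of the pairs in the ends were members and the forward SD in total chromatin differed by 3.01 bp; in ends of 10 kb 13.4% of pairs were members. In paired-end lists the wide neighbour share differed by 0.365 points, the forward SD by 1.90 bp in total chromatin and -1.21 bp in H2A.Z, and the H2A.Z read peak distance by -0.176 bp. With comparison pairs weighted by bins of mean rank, the wide neighbour share differed by 15.0 points and the forward SD by 2.86 and -1.03 bp. Without the windows from 110 to 120 and 280 to 310 kb, a setting chosen after seeing the data, the run share was 37.4%, against 15.6% of the pairs left. The interval of the wide neighbour difference included 0 with a wide distance over 180 or 250 bp, a limit of 0.1 or comparison pairs between -0.1 and 0.1. That of the read peak distance included 0 in total chromatin and in H2A.Z with a match distance of 10 bp, percentiles among all positions, paired-end lists and without those windows, in total chromatin also with 30 bp and in H2A.Z also with a limit of 0.3. The cause of the changes in paired-end lists was not tested. No paired analysis was possible because each group has 1 library. Depth is unknown and sets no limit that can be given.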
